A study of Mus musculus with 12 samples.

Results

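The cells described here are tumour-infiltrating T cells of large clones, defined by lineages of 20 or more cells. A lineage was a set of cells of 1 library with the same beta chain (TRB) V segment, J segment and CDR3 bases, counted over barcodes with exactly 1 distinct TRB and 1 or 2 alpha chains (TRA), which are called paired cells. By this rule 6128 of 19115 paired cells (32.1%) were members, and they fell into 78 of 10586 lineages with 60 distinct TRB. Lineage size chose the members and is therefore given as a description. The smallest large lineage of each library had 20 to 24 cells, and the largest lineage just outside had 15 to 19.

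The T cell receptor of conventional T cells is a pair of an alpha and a beta chain. Each chain is joined in the thymus from separate segments, V, D and J for beta and V and J for alpha, with bases trimmed and added at the joints. The joint encodes the CDR3 loop, which makes most of the contact with the peptide on the presenting MHC molecule. Cells with the same rearranged beta bases are as a rule progeny of the same T cell, and a lineage with many cells in a tumour is the usual sign of clonal expansion. A cell silences its other beta allele more strictly than its other alpha allele, so that mature T cells with a second productive alpha chain are common.

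The libraries came from subcutaneous tumours in C57BL/6J mice aged 6 to 8 weeks. The tumours were grown from MC38, a mouse colon carcinoma line, as a p53 knockout derivative to which the labels assign, in conflicting notations, a p53 substitution, and every group carries it. The groups were LNP-Ctrl and LNP-P20-mAb, with 3 TCR libraries each, and both had received 40 µg in the tumour once on day 10. About 10000 sorted CD45+ cells (leukocytes) per sample were loaded, and no source used here gives the time of harvest. Neither the number of animals behind a library nor whether animals were pooled is stated, so each p-value reflects how far these libraries spread, a spread that can be technical.

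The 6 libraries held 2016 to 3923 paired cells and 85835 to 145847 unique molecular identifiers (UMIs, which count captured receptor transcripts). LNP-P20-mAb 1 and 2 carried the same clones. Of the 26 TRB that were large in either library, 26 were present in both and 18 were large in both. The comparisons of treatments and of size classes are therefore also given with the mean of this pair as 1 sample. Each of the 15 pairs of libraries shared 11 to 29 cell barcodes, LNP-P20-mAb 1 and 2 shared 15, and over all pairs 1 shared barcode carried the same TRB in both. Of 78 large lineages, 0 had the invariant alpha of iNKT cells (TRAV11 or TRAV11D with TRAJ18) or of MAIT cells (TRAV1 with TRAJ33), which allows a share of up to 3.85%, and no gamma-delta or immunoglobulin chain was listed. Members carry an alpha and a beta chain by the rule, and their gene expression was not analysed here.

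The receptors of the largest lineage of each library show how such a receptor is built. Each line gives the CDR3 bases from 5′ to 3′ as deposited, from the conserved cysteine codon to the last codon of the loop. Capitals mark the bases between the stretch that matched the V segment and the stretch that matched the J segment, where both stretches were learned from the libraries' own chains of that segment.
LNP-Ctrl 1, TRBV20 with TRBJ2-1, beta: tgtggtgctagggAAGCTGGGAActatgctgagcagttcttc
LNP-Ctrl 1, alpha TRAV7D-2 with TRAJ30: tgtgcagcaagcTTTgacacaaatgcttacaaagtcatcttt
LNP-Ctrl 2, TRBV12-1 with TRBJ2-7, beta: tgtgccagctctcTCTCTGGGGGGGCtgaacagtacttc
LNP-Ctrl 2, alpha TRAV3-1 with TRAJ30: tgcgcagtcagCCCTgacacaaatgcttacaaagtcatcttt
LNP-Ctrl 3, TRBV3 with TRBJ2-2, beta: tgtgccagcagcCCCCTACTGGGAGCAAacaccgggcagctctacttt
LNP-Ctrl 3, alpha TRAV6D-6 with TRAJ26: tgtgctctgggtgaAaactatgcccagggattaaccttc
LNP-P20-mAb 1 and 2, TRBV15 with TRBJ1-5, beta: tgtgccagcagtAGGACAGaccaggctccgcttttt
LNP-P20-mAb 1 and 2, alpha TRAV9-2 with TRAJ48: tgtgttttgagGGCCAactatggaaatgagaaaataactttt
LNP-P20-mAb 3, TRBV3 with TRBJ2-3, beta: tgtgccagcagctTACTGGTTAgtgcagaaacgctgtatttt
LNP-P20-mAb 3, alpha TRAV7D-2 with TRAJ17: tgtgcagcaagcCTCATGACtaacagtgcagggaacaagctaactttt
The 78 beta junctions held 3 to 23 such bases, with a median of 12. The beta J segment and the constant segment came from the same cluster (TRBJ1 with TRBC1, TRBJ2 with TRBC2) in 78 of 78 lineages.

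The LNP-Ctrl libraries 1, 2 and 3 had 12, 9 and 2 large lineages, and the LNP-P20-mAb libraries 1, 2 and 3 had 25, 19 and 11. Of all 78, 39 had 20 to 49 cells, 22 had 50 to 99 and the others 100 or more. Of the paired cells of LNP-Ctrl 1, 2 and 3 they made up 31.5%, 11.4% and 1.9% (95% exact Clopper-Pearson intervals 29.96% to 33.1%, 10.4% to 12.4% and 1.49% to 2.39%). In LNP-P20-mAb 1, 2 and 3 they held 71.8%, 63.3% and 33.1% (intervals 70.2% to 73.3%, 61.1% to 65.4% and 31.3% to 34.8%). These intervals cover counting error only. LNP-P20-mAb 3 and LNP-Ctrl 1 lay close to each other, with intervals that overlap, and LNP-Ctrl 3 had hardly any members. As means, LNP-P20-mAb libraries had a member share of 56.1% ± 20.4 and LNP-Ctrl libraries one of 14.9% ± 15.1 (SD, n = 3 each; exact permutation p = 0.1, two-sided, the smallest that 20 assignments allow; 0.32 adjusted over 8 comparisons). With LNP-P20-mAb 1 and 2 as 1 sample, the difference was 35.4 percentage points in place of 41.1 (exact permutation p = 0.2, over 10 assignments).

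**Figure D1:**
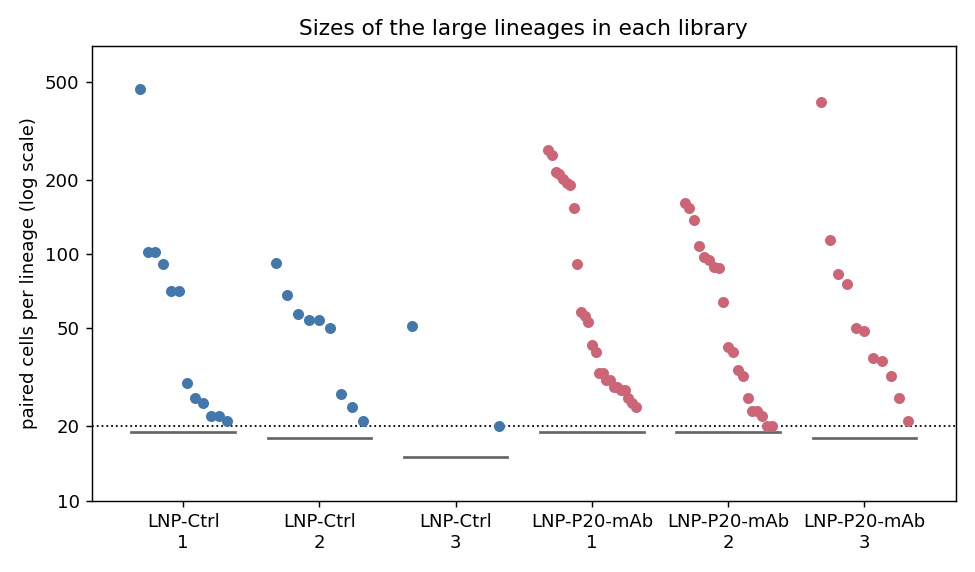
Cells per large lineage (log scale) in each library, 1 point per lineage in order of size. The dotted line marks 20 cells and the grey bars the largest lineage below it. LNP-Ctrl 1 and LNP-P20-mAb 3 are each led by 1 lineage of 468 and 414 cells, while LNP-Ctrl 3 has 2 lineages in all.

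The size ladders differed in shape. In LNP-Ctrl 1 the TRBV20 lineage had 468 cells (14.0% of the library, interval 12.9% to 15.3%) and the next, of TRBV12-2 and of the jointly named TRBV12-2+TRBV13-2, had 102 each. In LNP-P20-mAb 3 a TRBV3 lineage had 414 cells (14.6%, interval 13.3% to 15.9%), followed by TRBV20 with 114 and TRBV16 with 83. LNP-P20-mAb 1 had no such step, with TRBV15 at 264, TRBV13-1 at 253 and TRBV1 at 216 cells. Barcodes with 2 or more TRB are not counted in these sizes, so the order holds for paired cells only. In LNP-P20-mAb 1 the TRBV15, TRBV13-1 and TRBV1 lineages had their TRB in 14, 19 and 194 such barcodes, and a TRBV3 lineage of 201 cells in 163. LNP-P20-mAb 2 was led by TRBV15 at 162, TRBV3 at 154 and TRBV13-1 at 137. LNP-Ctrl 2 was led by TRBV12-1 at 92, TRBV26 at 68 and TRBV19 at 57, and LNP-Ctrl 3 held TRBV3 at 51 and TRBV13-1 at 20. A large lineage had a median size of 50.5, 54 and 35.5 cells in the LNP-Ctrl libraries and of 43, 42 and 49 in the LNP-P20-mAb libraries, in the order of their numbers. These medians are set in part by the limit of 20 cells, from which 39 of the 78 lineages lay fewer than 30 cells away.

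A set of large lineages of different libraries had the same alpha chain, base for base. TRBV15 lineages of 26 cells in LNP-Ctrl 1, 21 cells in LNP-Ctrl 2 and 49 cells in LNP-P20-mAb 3 all carried TRAV12D-3 joined to TRAJ5 with 1 junctional base. Their CDR3 bases are shown because the alpha recurs without change while the beta joint varies.
alpha of all, TRAV12D-3 with TRAJ5: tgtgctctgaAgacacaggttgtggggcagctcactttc
beta of LNP-Ctrl 1, TRBV15 with TRBJ1-4, 26 cells: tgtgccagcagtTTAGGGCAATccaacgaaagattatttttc
beta of LNP-Ctrl 2, TRBV15 with TRBJ2-3, 21 cells: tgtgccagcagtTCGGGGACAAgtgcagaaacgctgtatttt
beta of LNP-P20-mAb 3, TRBV15 with TRBJ2-3, 49 cells: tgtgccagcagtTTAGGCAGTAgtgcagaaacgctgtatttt
beta of LNP-P20-mAb 1 and of 2, TRBV15 with TRBJ2-3, 1 cell each: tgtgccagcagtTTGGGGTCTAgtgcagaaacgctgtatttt
Searching all lineages for this alpha found it in 6 of 6 libraries, in 105 cells, and 104 of these had TRBV15. The other cell had TRBV29. LNP-Ctrl 1 had 26 such TRBV15 cells, LNP-Ctrl 2 had 24, LNP-Ctrl 3 had 3, LNP-P20-mAb 1 and 2 had 1 each and LNP-P20-mAb 3 had 49. All 6 distinct TRBV15 beta CDR3 had 14 residues. The beta of LNP-P20-mAb 3 and that of LNP-P20-mAb 1 and 2 differed at 4 bases and at 0 residues, so the same receptor protein was encoded by different rearrangements. TRBV15 was the TRBV of 2.56% of single-cell lineages.

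The TRBV19 lineages formed another such set, with TRBJ1-1 and with alpha chains of TRAV6-4 or its copy TRAV6D-4 joined to TRAJ9. LNP-Ctrl 2 had 2 of them, of 57 and 27 cells, and another was shared by LNP-P20-mAb 1 (212 cells) and LNP-P20-mAb 2 (88 cells). Their beta CDR3 are shown because they differ at few positions.
LNP-Ctrl 2, 57 cells: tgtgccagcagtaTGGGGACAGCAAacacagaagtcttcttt
LNP-Ctrl 2, 27 cells: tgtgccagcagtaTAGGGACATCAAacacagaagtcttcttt
LNP-P20-mAb 1 and 2, 212 and 88 cells: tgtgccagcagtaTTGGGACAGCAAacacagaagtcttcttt
Against the lineage of 57 cells, that of 27 cells differed at 2 bases and 2 residues of the beta CDR3, and that of 212 cells at 1 base and 1 residue. The alpha CDR3 differed at 3 residues and at 1 residue in that order. TRBV19 also supplied 3 of the 4 large TRB found outside their own library or pair. The TRB of 212 and 88 cells had 2 cells in LNP-P20-mAb 3 and 1 cell in LNP-Ctrl 3, and the LNP-Ctrl 3 cell had the same alpha too. The TRB of 57 cells had 2 cells in LNP-P20-mAb 3, and that of 27 cells had 2 and 1 cells in LNP-P20-mAb 1 and 2. The fourth was the TRBV12-1 lineage of 191 and 97 cells in LNP-P20-mAb 1 and 2, with 1 cell in LNP-Ctrl 2.

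Further pairs of large lineages from different libraries shared the TRBV, the TRAV name with its copies and the TRAJ. TRBV1 with TRBJ2-1 and an alpha of TRAV14-1 or TRAV14N-1 with TRAJ26 had 58 and 64 cells in LNP-P20-mAb 1 and 2 and 76 cells in LNP-P20-mAb 3, with beta CDR3 that differed at 2 residues and alpha CDR3 that differed at 1 base and 0 residues. TRBV13-3 with TRBJ2-4, TRAV7-4 and TRAJ33 had 71 cells in LNP-Ctrl 1 and 43 and 26 in LNP-P20-mAb 1 and 2, with 2 differing beta and 1 differing alpha residues. TRBV13-3 with TRAV3N-3 and TRAJ15 had 25 cells in LNP-Ctrl 1 and 91 and 40 in LNP-P20-mAb 1 and 2, but with CDR3 of unequal length. With LNP-P20-mAb 1 and 2 taken as 1 sample, 8 of 1287 pairs of large lineages from different samples (62.2 per 10000) shared all 3 segments. The same share was 14.8 per 10000 for lineages of 5 to 19 cells and 0.824 per 10000 for single-cell lineages. TRBV alone was shared by 5.44% of pairs of large and 5.72% of pairs of single-cell lineages. These groups were noticed in the data, the pairs are not independent of each other, and no test was made.

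Within LNP-P20-mAb 1, a pair of TRBV2 lineages of 31 and 28 cells had beta CDR3 of the same 14 residues that differed at 1 base, and alphas of TRAV9N-3 and TRAJ33 that differed at 1 residue. Both are shown with the differing base among the capitals.
31 cells, beta: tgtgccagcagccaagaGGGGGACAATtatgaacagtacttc
28 cells, beta: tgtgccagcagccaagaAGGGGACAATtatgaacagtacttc
Over all 60 distinct large TRB, 9 had at least 1 further base version of the same residues, segments included, somewhere in the 6 libraries. Both TRBV2 lineages above are among the 9, each as a version of the other. No such share is given for smaller lineages, so the 9 are not shown to be particular to large ones. Among the 9, TRBV29 with TRBJ1-2, at 29 cells in LNP-P20-mAb 1, had a version of 15 cells in LNP-Ctrl 2. The TRBV20 lineage of 468 cells in LNP-Ctrl 1 had a version of 3 cells in all in LNP-P20-mAb 1 and 2.

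The number of TRB UMIs per cell went in part with the lineage. Lineage medians ran from 5.5 in a TRBV31 lineage of 22 cells in LNP-Ctrl 1 to 63 in a TRBV15 lineage of 21 cells in LNP-Ctrl 2, with a median of 19.5 over the 78. The quartiles of that TRBV31 lineage were 4 and 10 and those of that TRBV15 lineage 46 and 67, so their middle ranges did not overlap. Which lineage a member belonged to accounted for 0.488 and 0.529 of the variance of log2 TRB UMIs in LNP-Ctrl 1 and 2. The fraction was 0.432, 0.477 and 0.306 in LNP-P20-mAb 1, 2 and 3. With only 2 lineages, LNP-Ctrl 3 gave 0.0341. Within a lineage the coefficient of variation was 0.313 to 0.738, and the variance exceeded the mean, the value for pure counting, in 78 of 78.

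**Figure D2:**
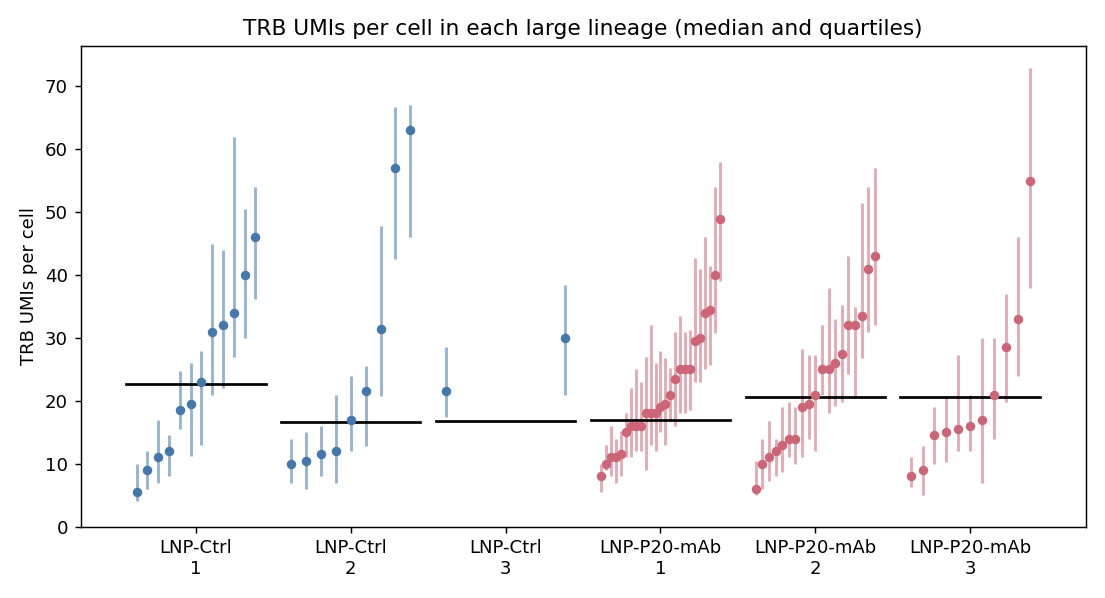
TRB UMIs per cell in each large lineage, as the median (point) and quartiles (line), with lineages ordered by median within a library. The black bars give the mean over single-cell lineages. Medians span 5.5 to 63, and every library but LNP-Ctrl 3 has lineages well below and well above its bar.

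Levels followed the TRBV segment in part. The 5 large TRBV15 lineages had medians of 40 to 63 and the 2 TRBV17 lineages 49 and 57, and single-cell lineages of these segments were high too, with medians of 26 and 31.0. The 4 TRBV2 lineages had 6 to 12, and single-cell TRBV2 lineages a median of 7.0. TRBV3 went apart from this, with a median of 30 over its 7 large lineages against 15 in single-cell lineages. So did TRBV31, with 5.5 and 15.5 in its 2 large lineages against 15 in single-cell ones. Across the 75 large lineages with at least 5 single-cell lineages of the same TRBV in the library, 51 lay above that median. Pearson's r between the log2 values was 0.421 and Spearman's rho 0.371 across these lineages, which share libraries and, in the pair, clones. Lineage size and TRB UMIs were hardly related (Pearson's r 0.0913, Spearman's rho 0.0867 across 78 lineages).

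Lineage medians of TRA UMIs, with 2 TRA summed, ran from 5 to 67. The 67 came from a TRBV10 lineage of LNP-Ctrl 1 in which 70 of 71 cells had 2 TRA, and the next highest median was 20. The middle 50% of TRA medians lay between 7.13 and 11.9 and that of TRB medians between 13.3 and 30. Summed over cells, the ratio of TRA to TRB UMIs ran from 0.135 in the TRBV15 lineage of LNP-P20-mAb 3 (49 cells) to 5.12 in that TRBV10 lineage of LNP-Ctrl 1 (71 cells). The median ratio over the 78 lineages was 0.429. TRB and TRA medians were hardly related across lineages (Pearson's r -0.185, Spearman's rho -0.125, n = 78).

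Clones common to LNP-P20-mAb 1 and 2 gave a second measurement of each lineage in another library, which shows how far these values repeat. Across the 18 TRB large in both, lineage medians of TRB UMIs had a Pearson's r of 0.940 and a Spearman's rho of 0.917, and those of TRA UMIs 0.886 and 0.902. The TRBV15 lineage had 40 and 43 TRB UMIs, the TRBV13-1 lineage of 253 and 137 cells 11 and 10, and the TRBV2 lineage with TRAJ33 8 and 6.0. The ratio of LNP-P20-mAb 2 to 1 lay between 0.750 and 1.78 over the 18. That upper end was TRBV13-1 with TRBJ1-4, at 18 and 32 with 33 and 20 cells. Shares of the library differed by factors of 0.672 to 1.79. The upper end was TRBV1 with TRBJ2-1, at 58 and 64 paired cells in LNP-P20-mAb 1 and 2. Its TRB was also in 143 and 54 barcodes with 2 or more TRB, which are not counted. The points share segments and clones by construction, and the correlations describe them only.

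**Figure D3:**
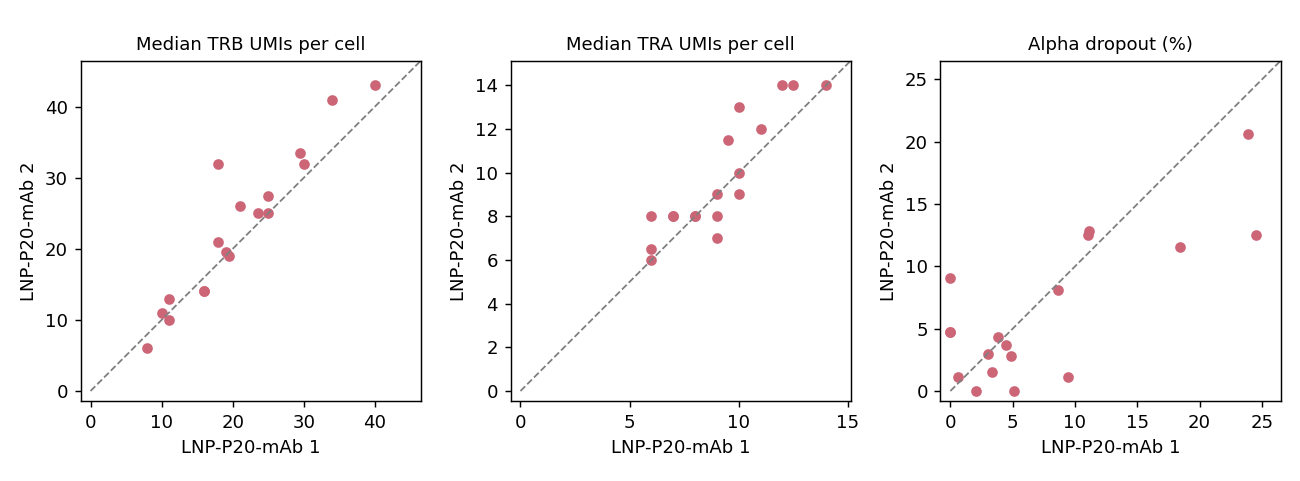
The 18 TRB that were large in both LNP-P20-mAb 1 (x axis) and LNP-P20-mAb 2 (y axis), by median TRB UMIs per cell, median TRA UMIs per cell and alpha dropout in percent, with the line of equality dashed. UMI medians lie near the line, with Pearson's r of 0.940 and 0.886, and alpha dropout lies farther from it, with 0.769.

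Alpha dropout, the share of a lineage's single-TRB barcodes that had no TRA, also differed between lineages. It was 0 in 17 of the 78, had a median of 4.4% and reached 10% or more in 18. The highest was a TRBV16 lineage of 40 paired cells in LNP-P20-mAb 1, where 13 of 53 barcodes lacked a TRA (24.5%, exact interval 13.8% to 38.3%). The same clone had 12.5% in LNP-P20-mAb 2 (interval 4.73% to 25.2%), so these overlap. The TRBV15 lineage with TRAV9-2 had 83 of 347 barcodes without TRA in LNP-P20-mAb 1 (23.9%, interval 19.5% to 28.8%) and 42 of 204 in LNP-P20-mAb 2 (20.6%, interval 15.3% to 26.8%). By contrast, the TRBV20 lineage of LNP-Ctrl 1 lacked it in 7 of 475 (1.47%, interval 0.594% to 3.01%). Across the 18 shared TRB, Pearson's r between the libraries was 0.769 and Spearman's rho 0.492.

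Dropout was lowest in the lineages with the most UMIs of the missing chain. Lineages with a TRA median above 10 UMIs lost the alpha on 1.62% of barcodes, against 11.0% for 8 to 10 UMIs and 7.25% for fewer than 8. The lower classes were thus not in order. The class of 8 to 10 UMIs holds the TRBV15 lineage with TRAV9-2, which had 83 barcodes without TRA in LNP-P20-mAb 1 and 42 in LNP-P20-mAb 2. Barcodes with the TRA of a large lineage and no TRB were rarer, at 107 against 445 without TRA, and 46 of 78 lineages had none. As a share of these and the paired cells together, they made up 4.93% in the 19 lineages with a TRB median of up to 12 UMIs, 1.13% in the 29 lineages up to 24 and 0.557% in the 30 above. The highest value was 28.6%, in a jointly named TRBV12-2+TRBV13-2 lineage of LNP-Ctrl 2 with 50 paired cells and 20 barcodes with its alpha alone. A TRBV31 lineage of LNP-Ctrl 1, the one with the lowest TRB level, followed at 24.1%. A TRA shared with another clone would be counted here too.

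A second alpha chain went with the lineage. In 71 of 78 large lineages, with 5189 cells, no cell had 2 TRA, in 1 lineage 1 cell did, and in 6 lineages most cells did. In single-cell lineages, 10.4% to 14.5% of cells had 2 TRA, depending on the library. A single cell either has 2 TRA or not, so this is a share of lineages and not a share within a lineage. The like count for large lineages is the 6 of 78 in which most cells had 2 TRA.

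**Figure D4:**
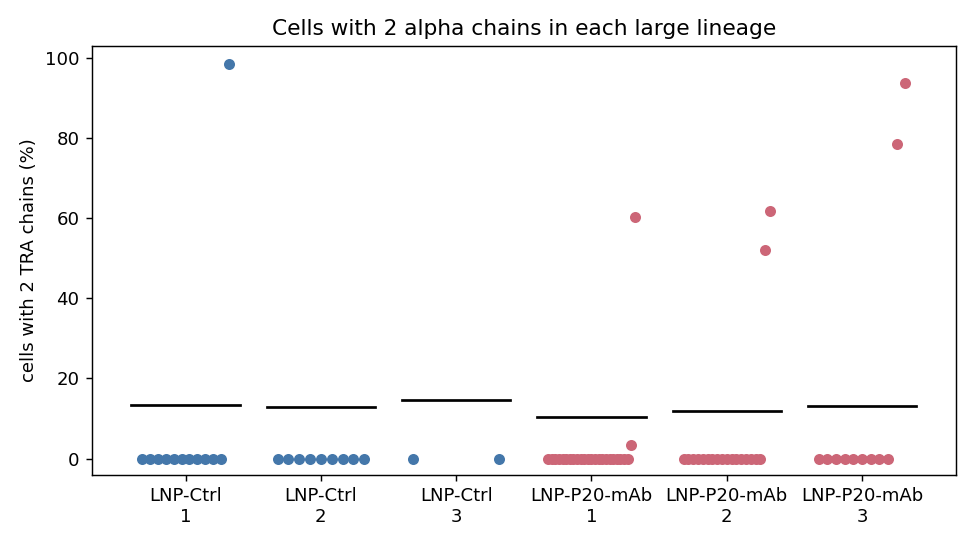
Share of cells with 2 TRA chains (percent) in each large lineage, 1 point per lineage. The black bars give the share of the library's single-cell lineages whose cell had 2 TRA, 10.4% to 14.5%. This is a share of lineages, while each point is a share within a lineage. Points lie at or near 0 except for 6 lineages between 52.2% and 98.6%.

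These 6 lineages were 5 clones, since TRBV12-1 of LNP-P20-mAb 1 and 2 is the same, and the most frequent second alpha of each was found in 65.2% to 97.2% of its cells. The highest share was in a TRBV10 lineage of LNP-Ctrl 1, where 70 of 71 cells had 2 TRA (98.6%), and its summed TRA level, a median of 67 UMIs, was the highest of all. Its most frequent alpha had a median of 36 UMIs and the second 28.0. A TRBV20 lineage of LNP-P20-mAb 3 had 2 TRA in 107 of 114 cells (93.9%), and the TRBV3 lineage that led this library in 325 of 414 (78.5%). The TRBV12-1 lineage shared by LNP-P20-mAb 1 and 2 had them in 60.2% and 61.9% of cells. A TRBV2 lineage of 23 cells in LNP-P20-mAb 2 had them in 12 (52.2%), and the same clone, just outside the size limit in LNP-P20-mAb 1 with 17 cells, in 70.6%. The alphas of the largest of these lineages, TRBV3 of LNP-P20-mAb 3, and of the lineage with the highest share are shown.
LNP-P20-mAb 3 TRBV3, TRAV7D-2 with TRAJ17: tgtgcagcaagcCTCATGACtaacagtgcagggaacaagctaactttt
LNP-P20-mAb 3 TRBV3, TRAV4-2 with TRAJ35: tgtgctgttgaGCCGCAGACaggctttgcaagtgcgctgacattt
LNP-Ctrl 1 TRBV10, TRAV7-3 with TRAJ24: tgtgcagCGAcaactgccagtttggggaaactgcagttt
LNP-Ctrl 1 TRBV10, TRAV14-2 with TRAJ27: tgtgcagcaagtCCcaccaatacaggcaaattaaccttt
In the TRBV3 lineage, cells with both alphas had a median of 23 TRB UMIs and cells with 1 alpha 17, and in the TRBV20 lineage 15 and 5.0. In the TRBV12-1 lineage these medians were 38 and 29.5 in LNP-P20-mAb 1 but 41 and 44 in LNP-P20-mAb 2. The most frequent alpha was present in every cell of 72 of the 78 lineages, and the share with it was lowest, at 86.6%, in the TRBV12-1 lineage of LNP-P20-mAb 2.

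The beta CDR3 loops of large lineages had 10 to 17 residues, and 30 of 78 had 14. The shortest, with 10 residues and 3 junctional bases, belonged to a TRBV13-3 lineage of 25 cells in LNP-Ctrl 1. The longest, with 17, belonged to the TRBV1 lineage with TRBJ2-5 in LNP-P20-mAb 1 and 2 and to the TRBV13-1 lineage of LNP-Ctrl 3. Net charge, counted as lysine and arginine minus aspartate and glutamate, was below 0 in 51 lineages, 0 in 25 and above 0 in 2. The TRBV2 lineages with TRAJ33 of LNP-P20-mAb 1 and 2 had the lowest charge, -3, and also the lowest hydropathy, -2.50 on the Kyte-Doolittle scale, where higher values are more hydrophobic. Those with a charge of 1 were a TRBV13-3 and a TRBV20 lineage of LNP-P20-mAb 3. Hydropathy was taken over the centre of the loop, without 3 residues at each end. It was highest, at 0.975, in the TRBV3 lineage of 414 cells in LNP-P20-mAb 3. The value was above 0 in 8 lineages in all, among them TRBV13-1 of LNP-Ctrl 1 (91 cells, 0.643) and TRBV26 of LNP-Ctrl 2 (68 cells, 0.450).

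Within each library, large lineages were set against single-cell lineages with each lineage counted once, and 7 measures were tested. Large lineages had higher beta CDR3 hydropathy in 6 of 6 libraries, with -0.984, -0.519 and -0.507 in LNP-Ctrl 1, 2 and 3. The LNP-P20-mAb libraries, in the same order, had -1.04, -1.07 and -0.901. Single-cell lineages lay between -1.29 and -1.19 in every library, so the groups did not overlap. The mean difference was 0.383 ± 0.291 (SD over n = 6 libraries; exact sign-flip permutation p = 0.03125, the smallest of 64 flips, two-sided; 0.0729 adjusted by Benjamini-Hochberg over 7). With LNP-P20-mAb 1 and 2 as 1 sample it was 0.432, with p = 0.0625, the smallest that such 5 samples allow in an exact test. None of the 7 measures passed an adjusted p of 0.05, so these are values and directions.

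Alpha dropout was lower in large lineages in 6 of 6 libraries. The rule counts only barcodes with a TRA and so selects against dropout, while single-cell lineages were here those of 1 single-TRB barcode, with or without a TRA. Dropout was 3.38%, 6.62% and 3.64% in LNP-Ctrl 1, 2 and 3 against 7.9%, 12.3% and 7.99% in single-cell lineages. In LNP-P20-mAb 1, 2 and 3 it was 6.85%, 6.02% and 6.90% against 10.04%, 9.91% and 8.91%. The difference was -3.95 percentage points ± 1.26 (SD, n = 6; exact sign-flip permutation p = 0.03125, 0.0729 adjusted). With the size of large lineages, too, counted over barcodes with or without a TRA, an alternative added after seeing the data, it was -3.68 points, lower in 6 of 6 libraries (exact sign-flip permutation p = 0.03125, unadjusted).

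TRB UMIs were higher in large lineages in 6 of 6 libraries. The mean of lineage medians was 23.5, 26 and 25.8 in LNP-Ctrl 1, 2 and 3, where single-cell lineages had 22.6, 16.7 and 16.8. For LNP-P20-mAb it was 21.7, 22.3 and 21.1, where they had 16.9, 20.7 and 20.7. The difference of 4.35 ± 4.02 UMIs had the same p and adjusted p in that exact test, and in LNP-P20-mAb 3 and LNP-Ctrl 1 it was under 1 UMI. Against single-cell lineages of the same TRBV, a comparison added after seeing the data, it was 4.12, higher in 5 of 6 libraries, with an exact sign-flip p = 0.0625. A median over a lineage's cells lies below the mean when UMIs are skewed, and the value of a single-cell lineage is that of its cell, so the scales of both groups are not quite alike. With the median in place of the mean over lineages, LNP-P20-mAb 3 turned, at 16 in large and 17 in single-cell lineages.

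**Figure D5:**
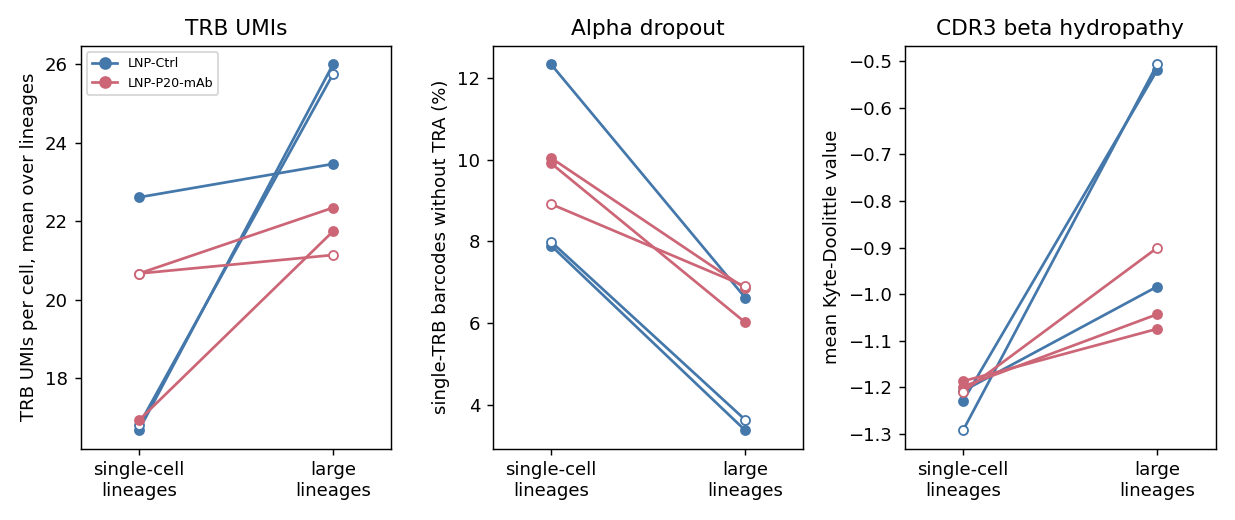
Single-cell lineages (left) and large lineages (right) in each library, joined by a line, for TRB UMIs per cell, alpha dropout and beta CDR3 hydropathy, each as the mean over lineages. Open symbols are the third library of each treatment, and the axes do not start at 0. Lines rise, fall and rise in 6 of 6 libraries, by 4.35 UMIs, -3.95 percentage points and 0.383 on average.

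The other measures did not keep 1 direction. TRA UMIs differed by 0.815 ± 2.48 (higher in 3 of 6 libraries; exact sign-flip p = 0.53125, 0.744 adjusted). The share of cells with 2 TRA differed by -7.28 percentage points ± 6.12 in large lineages (lower in 5 of 6; exact sign-flip p = 0.0625, 0.109 adjusted). It was -2.15 points with every cell counted once and -2.22 with lineages of 50 or more cells (exact sign-flip p = 0.8125 and 0.719). LNP-P20-mAb 3 was the exception, where 2 of its 11 large lineages carried a second alpha. CDR3 length differed by 0.373 ± 1.09 residues and net charge by 0.0463 ± 0.294, each higher in 3 of 6 libraries (exact sign-flip p = 0.6875 and 0.75). Whether treatments differed in these gaps was tested for all 7, with exact permutation p between 0.1 and 0.8.

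Between the treatments, large lineages of LNP-P20-mAb had fewer TRB UMIs, 21.7 ± 0.603 against 25.1 ± 1.40 in LNP-Ctrl (mean over lineages, SD over n = 3 libraries each). By this mean the libraries did not overlap, and the exact permutation p of 0.1 (0.32 adjusted over 8) is the smallest this design allows. With the median in place of the mean over lineages, they did overlap. LNP-Ctrl 1, 2 and 3 then had 21.25, 17 and 25.75, and LNP-P20-mAb 1, 2 and 3 had 19, 21 and 16. The LNP-Ctrl 3 value rests on 2 lineages. The difference of -3.33 UMIs was -1.59 with lineages of 50 or more cells (exact permutation p = 0.6), -1.75 with 10 or more (p = 0.1) and -2.12 with every cell counted once (p = 0.3). For alpha dropout LNP-P20-mAb had 6.59% ± 0.496 and LNP-Ctrl 4.55% ± 1.8, with overlapping libraries (exact permutation p = 0.2, 0.32 adjusted). Cells with 2 TRA made up 8.07% ± 6.80 and 2.74% ± 4.74 per lineage (exact permutation p = 0.3, 0.4 adjusted). None of the 9 and 2 large lineages of LNP-Ctrl 2 and 3 held such a cell. CDR3 length was 14.0 ± 0.113 and 14.7 ± 1.55 residues, net charge -0.879 ± 0.289 and -0.676 ± 0.379, and hydropathy -1.01 ± 0.0927 and -0.670 ± 0.272, in LNP-P20-mAb and LNP-Ctrl in this order (n = 3 each; exact permutation p = 0.8, 0.6 and 0.2). The number of large lineages was 18.3 ± 7.02 and 7.67 ± 5.13 (exact permutation p = 0.2). No comparison of 3 with 3 libraries can pass 0.05 here. With LNP-P20-mAb 1 and 2 as 1 sample, the differences (LNP-P20-mAb minus LNP-Ctrl) were -3.48 TRB UMIs, 2.12 points of alpha dropout, 7.23 points of cells with 2 TRA and 8.83 large lineages (exact permutation p = 0.2, 0.3, 0.3 and 0.3). They were -0.728 residues, -0.12 in net charge and -0.31 in hydropathy (exact permutation p = 0.8, 0.7 and 0.3).

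Segment usage was described over the 60 distinct TRB and tested over all 78 lineages with the library as a block. TRBV13-1, of the Vβ8 family, led with 7 of 60, followed by TRBV3 with 6 and TRBV1 and TRBV13-3 with 5 each. Among beta J segments TRBJ2-7 was used by 12, TRBJ2-4 by 10 (16.7%, against 8.66% of single-cell lineages) and TRBJ2-1 by 9. The TRBJ2 cluster held 43 and the TRBJ1 cluster 17. With near-identical copies summed under 1 name, TRAV16 was used by 9 (15% against 7.13%), TRAV7-2 by 6 (10% against 3.03%) and TRAV3-3 by 5. TRAJ26 was used by 6 (10% against 4.42%), and TRAJ5 by 4 (6.67% against 0.843%), 3 of these with the shared alpha on TRBV15.

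With edgeR's quasi-likelihood test, 0 of 151 segments (0%) were called different between large and single-cell lineages at an adjusted p of 0.05. Of the 151, 17 lay below an unadjusted p of 0.05. The 18 TRB large in both LNP-P20-mAb 1 and 2 enter this test once per library. With that pair summed and shared lineages counted once, edgeR called 0 of 150 segments, and 9 lay below an unadjusted p of 0.05. On simulated data the test called 47% of segments made 4-fold and 79.3% of those made 8-fold more frequent in large lineages. Calling 0 therefore does not show equal usage. DESeq2 also called 0, with 21 below an unadjusted p of 0.05. The lowest edgeR adjusted p, 0.228, was that of TRAV7D-2, used by 9 of 78 large and 295 of 9725 single-cell lineages, at a log2 difference of 1.85 ± 0.58 (SE). TRBV15 stood at 2.28 ± 0.80 and TRAJ5 at 2.53 ± 0.99, with the same edgeR adjusted p. Of the Vβ8 family 0 of 3 were called, with TRBV13-1 at 1.01 ± 0.46 and TRBV13-3 at 0.36 ± 0.53. TRBV13-2 under its own name was in 0 of 78 large lineages (up to 3.85%) and in 124 of 9725 single-cell lineages. The jointly named TRBV12-2+TRBV13-2, in 5 large and 975 single-cell lineages, stood at -0.62 ± 0.51. Chains of TRBV13-2 can lie under this joint name, so the 0 does not show that large lineages lack the segment. Of the Vβ5 family 0 of 2 were called, with TRBV12-1 at -0.56 ± 0.63 and TRBV12-2, in 1 large lineage, at -2.69 ± 0.94.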

How the data were processed

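TCR libraries of sorted CD45+ tumour cells, prepared with 10x Genomics 5′ version 2 and V(D)J enrichment kits per the labels' protocols, were available for 3 LNP-Ctrl and 3 LNP-P20-mAb samples. The authors deposited 1 line per assembled chain with its segments, CDR3 and raw counts of reads and UMIs. Cell Ranger 8.0.1 is named in the submitters' processing notes, as are several mouse genome builds with no role, and coordinates are therefore left out. Cells and chains were called before deposit, which removes weak chains.

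The members and the lists of segments and markers were chosen with earlier results of these data known. Productive chains were counted once per barcode. Barcodes with 2 or more TRB were left out, which removes more cells from some large lineages than from others. UMI levels are lineage medians, with 2 TRA summed, and their precision rests on 20 or more cells per lineage. The V and J stretches of a CDR3 are the bases shared by at least 60% of the chains of a segment (20 or more chains). Lineages named are the largest 3 of each library, the extremes of each measure, those found in other libraries, those rich in a second TRA and those at the size limit. Receptor groups were chosen after their values were seen.

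Treatments were compared with exact permutation tests and size classes within libraries with exact sign-flip tests, with Benjamini-Hochberg adjustment over each family. Segments with 30 or more lineages were tested with edgeR 4.0.16 in R 4.3.3, on numbers of lineages, and DESeq2 1.42.0 was an alternative. The standard error of a log2 difference was approximated as its size over the square root of F. The test was tested on simulated data. Further steps ran in Python 3.11.15 (scipy 1.17.1, pandas 2.3.3, numpy 2.4.6, with figures by matplotlib 3.10.9). TRAV names with D or N mark near-identical copies that reads can be split between. Other alternatives were chains of fewer than 3 UMIs dropped, limits of 10 and 50 cells, lineages by CDR3 residues, thinning to 2016 cells, and leaving out each library. Same-numbered libraries did not deviate together in TRBV usage (Pearson's r -0.0732, 0.384 and -0.348 across 22 segments). TRBV usage need not carry a shared day or batch, so whether the numbers pair the libraries stays unknown.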

Additional observations from a re-analysis of the deposited data

Results flagged for a closer look

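The difference in beta CDR3 length between large and single-cell lineages was 2.56 residues in LNP-Ctrl 3, far from the other libraries, which lay between -0.415 and 0.138. LNP-Ctrl 3 has 2 large lineages, TRBV3 with 16 and TRBV13-1 with 17 residues. Of 7 such comparisons over 6 libraries this was the only value so far out, where chance gives about 5% of groups 1.

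Barcodes with 2 TRB are left out of the members and enter only 1 alternative, for the share and the number of large lineages. The TRB of a large lineage was found in 93.6%, 85.8% and 53.8% of them in LNP-P20-mAb 1, 2 and 3, and in 34.7%, 7.95% and 0% in LNP-Ctrl 1, 2 and 3. The share of members among paired cells sets a background for this. If both TRB were drawn from the paired cells, 92.1%, 86.5% and 55.2% would hold one in LNP-P20-mAb 1, 2 and 3 and 53.1%, 21.5% and 3.76% in LNP-Ctrl 1, 2 and 3. The LNP-P20-mAb values lie near that background and those of LNP-Ctrl below it. This background takes the TRB as drawn independently, which the counts below go against. It therefore cannot tell whether the treatments differ in these barcodes apart from the share of members, and the difference is not given as a result of its own. Of the 970 barcodes with a large lineage's TRB, 960 (99%) had 2 TRB of the same TRBV, against 151 of 874 (17.3%) of the others. In LNP-P20-mAb 1, 141 barcodes joined the TRBV1 lineage with TRBJ2-5 to the TRBV1 lineage with TRBJ2-1. Of these, 67 had the alpha of the one lineage alone, 74 that of the other alone and 0 had both. In LNP-P20-mAb 3, 55 barcodes joined the TRBV3 lineage of 414 cells to another TRBV3 TRB, and 55 of 55 had only the alpha seen with that other TRB, with medians of 9 UMIs for the large lineage's TRB and 22 for the other.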

How the results depend on the processing

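Of 207 values under other settings for 16 results, 175 kept their direction and side of the threshold, 24 no longer reached the threshold, 1 newly passed it and 7 reversed. The threshold was an unadjusted p of 0.05 for exact tests and an adjusted p of 0.05 for segments. No comparison between treatments could reach it, since the smallest p with 20 assignments is 0.1 and fewer assignments allow none lower. Treatment values counted as kept therefore show direction only. Tests within libraries that left out or averaged a library were limited in the same way. The difference between treatments kept its direction in 58 of 59 alternatives that left out no library. The exception, with lineages of 10 or more cells, was the share of cells with 2 TRA, at -6.20 points, and the within-library difference of that share turned to 0.524 points. The cause was not tested. Sizes moved more. The treatments' gap in alpha dropout, 2.04 points, was 0.578 with lineages of 10 or more cells and 0.64 with 50 or more (exact permutation p = 0.8 and 1). That in hydropathy, -0.336, was -0.111 with every cell counted once (exact permutation p = 1). That in cells with 2 TRA, 5.33 points, was 16.6 with every cell counted once and 9.98 with lineages of 50 or more cells (exact permutation p = 0.3 and 0.5).

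For TRB UMIs within libraries the unadjusted exact p rose above 0.05 with lineages of 10 or more cells (1.98 UMIs), of 50 or more (5.40), with LNP-P20-mAb 1 and 2 averaged (4.57) and against the same TRBV (4.12). With the pair averaged, alpha dropout (-4.03 points) and hydropathy (0.432) were at the smallest p that 5 samples allow, 0.0625, as was each result that left out 1 library, so these say nothing about stability. Leaving out each library in turn gave 3.35 to 5.13 UMIs, -4.33 to -3.59 points and 0.302 to 0.437. TRA UMIs gave -0.0321 to 1.26, with the reversal without LNP-Ctrl 1. CDR3 length gave -0.0645 to 0.531 within libraries and -1.3 to 0.158 between treatments, reversed without LNP-Ctrl 3. Net charge gave -0.0265 to 0.115, reversed without LNP-Ctrl 1 and without LNP-Ctrl 3 (-0.00243). Without LNP-P20-mAb 3 the treatments' gap in cells with 2 TRA was 1.54 points instead of 5.33.

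With TMM factors edgeR called 24 segments, all lower in large lineages, and the median log2 difference over the segments moved from -0.84 to -2.31. Every other setting called 0 of its tested segments, and 6 to 21 lay below an unadjusted p of 0.05.

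With the replicate number as a block, the gap in the share of members stayed at 41.1 points (exact sign-flip p = 0.25, the smallest 3 pairs allow). No call between treatments could change with this block.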
